A study of Mus musculus with 6 samples.

Results

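The 40 genes described here encode proteins that copy DNA in S phase, the part of the cell cycle in which the genome is replicated, together with the cyclins and the transcription factor that open this phase. They were chosen by name, with earlier results of these data known, and all 40 were found among the 55487 genes of the deposited tables. The RNA came from cultured chondrocytes, which build cartilage matrix, taken from knee cartilage of C57B/6 mice and grown in medium with fetal bovine serum. Every culture was given extracellular vesicles (membrane-bound particles shed by cells) for 24 h, at a vesicle protein concentration of 10 µg/ml. Unstimulated macrophages were the source of the vesicles in 3 libraries (M-EV), and macrophages stimulated with lipopolysaccharide (LPS), a bacterial cell wall component, in the other 3 (M-LPS-EV). Chondrocytes without vesicles were not analysed here, so a value compares the vesicle types only. The labels used here state neither the age of the mice nor whether replicates were separate cultures, and each p-value therefore reflects the spread among these samples, which may be technical.

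Replication starts at origins. The origin recognition complex, with Cdc6 and Cdt1, loads the ring of MCM proteins in G1 phase, and kinases, Cdc45 and the GINS complex turn this ring into the active helicase at the onset of S phase. The genes of this machinery are classical targets of E2F transcription factors, which the retinoblastoma proteins hold in check until cyclin-dependent kinases (CDKs) phosphorylate them. Articular chondrocytes divide little in the adult joint, whereas chondrocytes in primary culture can divide.

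Some member promoters share a sequence feature. Of the 40 members 34 had a promoter in a RefSeq table of build GRCm38.p6 (250 bases before to 50 after a transcription start, 40 windows in all), and Mcm4, Gins1, Gins2, Gins4, Pole and Ccne2 had no entry. An E2F-like motif, searched on both strands as TTTCCCGC, TTTGGCGC or TTTCGCGC, stood in 12 of the 40 member windows (30%) and in 1.84% of the 32851 windows of all genes. The CCAAT box was in 52.5% of member windows and 37.4% of all windows, and a CHR-like motif (TTTGAA or TTCGAA) in 17.5% and 19.2%. These matches describe letters and are not shown binding sites.

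Mcm6 and Mcm5 are printed because they hold overlapping E2F-like matches, and Pola1 because it holds a single one. Mcm2 is shown as the member called lower, and Rrm2 and Tk1 as members that rose and have no such match in the window. The stretches lie outside the annotated gene, run 5′ to 3′ on its strand and carry E2F-like matches in capitals.
Mcm6, chr1:128359706-128359955, minus strand: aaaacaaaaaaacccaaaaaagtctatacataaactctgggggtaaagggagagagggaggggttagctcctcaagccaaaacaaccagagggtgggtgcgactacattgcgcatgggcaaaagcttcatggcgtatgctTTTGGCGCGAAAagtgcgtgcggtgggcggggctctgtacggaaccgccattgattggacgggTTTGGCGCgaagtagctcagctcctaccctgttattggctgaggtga
Mcm5, chr8:75109259-75109508, plus strand: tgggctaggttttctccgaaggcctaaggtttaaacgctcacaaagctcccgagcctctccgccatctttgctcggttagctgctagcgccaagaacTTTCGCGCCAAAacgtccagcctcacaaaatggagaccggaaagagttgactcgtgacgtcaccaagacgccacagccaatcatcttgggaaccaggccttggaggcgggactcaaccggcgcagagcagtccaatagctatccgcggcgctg
Pola1, chrX:93632156-93632405, minus strand: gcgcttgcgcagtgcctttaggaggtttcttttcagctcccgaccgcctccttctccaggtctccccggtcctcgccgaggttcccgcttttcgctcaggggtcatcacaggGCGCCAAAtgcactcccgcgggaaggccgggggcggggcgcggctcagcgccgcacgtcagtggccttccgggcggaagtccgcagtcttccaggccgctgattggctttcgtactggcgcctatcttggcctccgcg
Mcm2, chr6:88898781-88899030, minus strand: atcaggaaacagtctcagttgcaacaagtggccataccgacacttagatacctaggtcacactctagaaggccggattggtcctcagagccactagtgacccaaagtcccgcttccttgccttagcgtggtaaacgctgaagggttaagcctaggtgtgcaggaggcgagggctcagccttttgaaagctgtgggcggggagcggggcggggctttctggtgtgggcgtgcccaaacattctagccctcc
Rrm2, chr12:24708004-24708240, plus strand: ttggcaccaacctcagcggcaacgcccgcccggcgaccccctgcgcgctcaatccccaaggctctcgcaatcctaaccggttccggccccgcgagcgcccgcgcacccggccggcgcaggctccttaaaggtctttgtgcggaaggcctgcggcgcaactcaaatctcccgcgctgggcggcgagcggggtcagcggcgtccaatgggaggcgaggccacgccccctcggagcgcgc
Tk1, chr11:117826093-117826264, minus strand: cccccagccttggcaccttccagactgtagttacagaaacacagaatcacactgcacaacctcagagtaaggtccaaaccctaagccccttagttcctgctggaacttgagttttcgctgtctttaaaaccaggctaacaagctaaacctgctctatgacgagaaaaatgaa

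Replication genes were slightly higher in chondrocytes that received M-LPS-EV. Of the 40 members 19 rose, 1 fell and 20 were not called by edgeR's quasi-likelihood test, two-sided, with Benjamini-Hochberg adjusted p-values over all 14604 tested genes held under 0.05. Among all tested genes 16.4% were called higher and 15.2% lower. Each count of called genes below is to be read beside these shares. Within the members' range of mean counts, which 9149 tested genes shared, the shares were 18.2% and 16.8%. The members' median log2 fold change, M-LPS-EV over M-EV, was 0.14, beside 0.00 for all tested genes, and 36 of the 40 values were above 0, beside 50.7% of all tested genes. Sizes were small, from -0.10 for Mcm2 to 0.45 for Tk1. When a change had to exceed 1.2-fold (edgeR glmTreat), Tk1 alone was called, whereas 5.2% of all tested genes were called higher and 2.58% lower. In 25 of the 40 members every M-LPS-EV library lay above every M-EV library, whereas this held for 21.5% of all tested genes. In 15 members the groups overlapped. Below, a value with its SE is an edgeR log2 fold change, and a positive one means higher with M-LPS-EV.

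**Figure D1:**
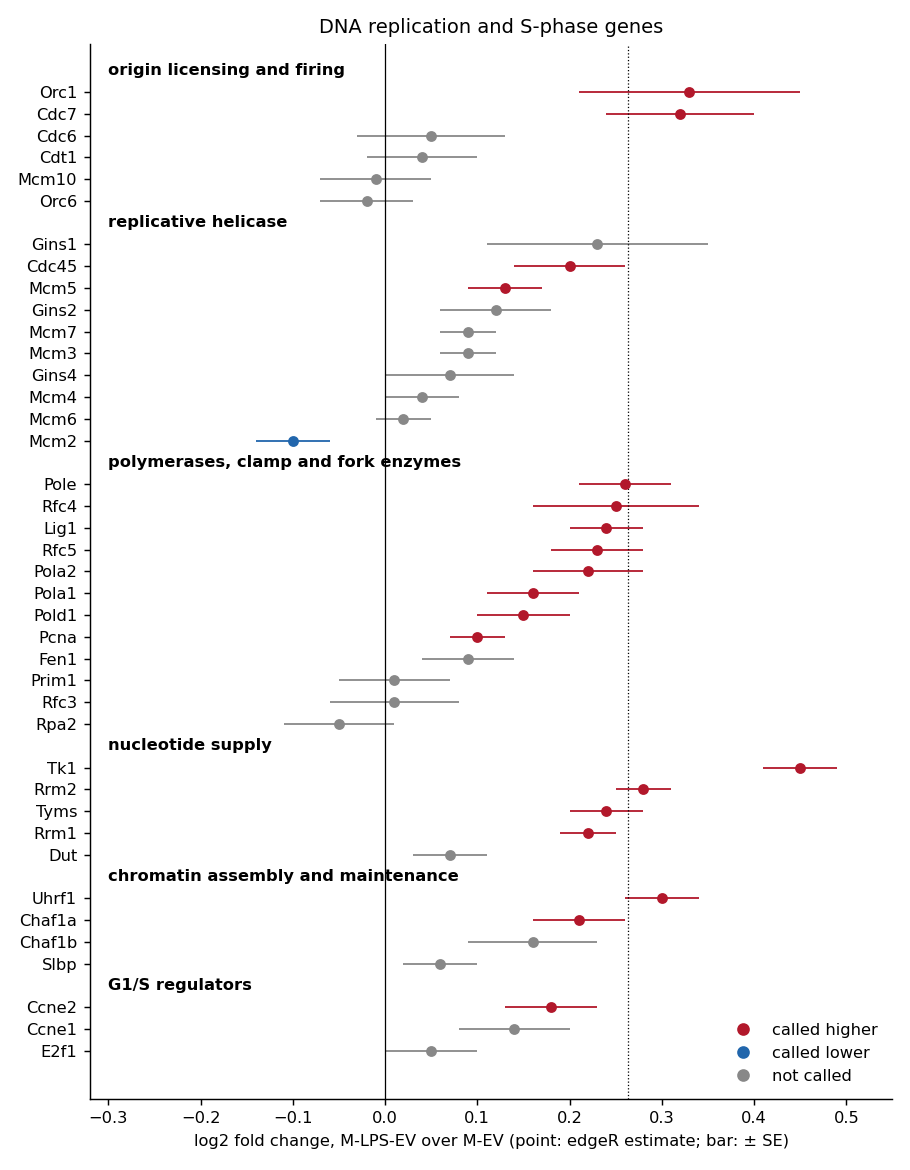
Log2 fold change of M-LPS-EV over M-EV (x axis) for each of the 40 members (y axis), grouped by role, as edgeR estimates with bars of ± SE, coloured by call, the dotted line marking 1.2-fold. Tk1 stands farthest to the right at 0.45, and Mcm2 is the member called lower, at -0.10.

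The members had mean counts per library between 123 and 3054 (median 709), and all 40 passed the filter on low counts. Library totals ran from 20239626 to 25712667 counts, and the members' share of them was 0.176% to 0.179% for M-EV and 0.195% to 0.2% for M-LPS-EV. In TPM, a unit of transcript abundance corrected for length, the M-EV libraries had member sums of 1665, 1644 and 1628, and the M-LPS-EV libraries had 1753, 1785 and 1762. The sums did not overlap, and the ratio of the group means was 1.07. In bulk RNA, more cells in S phase and more RNA per cell cannot be told apart.

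Levels per length differed widely between members. Pcna, the sliding clamp, was the most abundant with 163 ± 1.07 TPM with M-EV and 172 ± 5.89 TPM with M-LPS-EV (mean ± SD, n = 3 per group). Dut, the enzyme that keeps uracil out of DNA, followed with 133 ± 4.08 and 137 ± 2.86 TPM, and Rrm2, a subunit of ribonucleotide reductase, with 114, 111 and 111 TPM in the M-EV and 137, 131 and 134 TPM in the M-LPS-EV libraries. With M-LPS-EV the libraries of Dut (138, 134 and 140 TPM) and Rrm2 overlapped, so their order there was not resolved. Orc1 was lowest with 4.27 ± 0.227 and 4.90 ± 0.412 TPM. The next lowest was Cdc7 with M-EV (7.84 ± 0.666 TPM) and Cdc6 with M-LPS-EV (8.69 ± 0.868 TPM). With M-EV Cdc6 had 8.68 ± 0.391 TPM, and its libraries (8.43 to 9.13 TPM) lay just above those of Cdc7 (7.09 to 8.36 TPM). Orc6 was the most abundant of the licensing genes, at 54.4 ± 3.48 and 53.3 ± 3.91 TPM.

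Among the 6 genes of origin licensing and firing, Orc1 and Cdc7 rose and 4 were not called. Orc1 (ENSMUSG00000028587, chromosome 4, 108579423 to 108614833, plus strand, as all coordinates here in GRCm38) encodes the largest subunit of the origin recognition complex. It stood at 5.45, 5.80 and 4.96 CPM (counts scaled to a common library total, with sizes adjusted by TMM) with M-EV and at 7.46, 6.55 and 6.42 CPM with M-LPS-EV. The groups did not overlap (edgeR log2 fold change 0.33 ± 0.12 SE, adjusted p = 0.033), but the counts behind them were low, 379 and 445 summed over each group. The call ended without M-EV replicate 1 (0.34 with adjusted p = 0.06), without M-EV replicate 3 (0.28 with adjusted p = 0.13) and without M-LPS-EV replicate 1 (0.26 with adjusted p = 0.14), all by edgeR. It also ended with DESeq2 (adjusted p = 0.084) and when effective transcript length was an offset in edgeR (0.21, adjusted p = 0.28).

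Cdc7 (ENSMUSG00000029283, chromosome 5, 106964322 to 106984432, plus strand) encodes the kinase that, with Dbf4, phosphorylates the loaded MCM ring and fires origins. Its libraries read 13.5, 11.7 and 11.9 CPM with M-EV and 14.3, 16.7 and 15.4 CPM with M-LPS-EV. All M-LPS-EV values were higher (edgeR log2 fold change 0.32 ± 0.08 SE, adjusted p = 0.0026). The loading factors Cdc6 and Cdt1, with 0.05 ± 0.08 SE and 0.04 ± 0.06 SE, were not called. Cdt1 ranged over 21.4 to 24.6 CPM with M-EV and 22.7 to 24.6 CPM with M-LPS-EV, so its groups overlapped. Part of its length is shared with Gm20388 on the same strand, and such reads could be split between both genes. Orc6, another origin recognition subunit, had 30.2, 33.6 and 31.7 CPM with M-EV and 29.0, 33.4 and 31.3 CPM with M-LPS-EV. Mcm10, which helps to activate the helicase, had 24.1, 20.9 and 21.9 CPM and 21.6, 22.5 and 22.4 CPM. The groups of both overlapped, at log2 fold changes of -0.02 and -0.01 (edgeR adjusted p = 0.79 and 0.92).

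Of the 6 subunits of the MCM ring 1 rose, 1 fell and 4 were not called, with log2 fold changes between -0.10 and 0.13. A count of 1 in 6 each way is near the shares of all tested genes, 16.4% higher and 15.2% lower. Mcm2 (ENSMUSG00000002870, chromosome 6, 88883474 to 88898780, minus strand) is the subunit that also binds histones. It had 145, 135 and 133 CPM with M-EV and 127, 136 and 123 CPM with M-LPS-EV. The groups overlapped, since M-LPS-EV replicate 2 lay above M-EV replicates 2 and 3. Mcm2 fell by 0.10 ± 0.04 SE on the log2 scale (edgeR adjusted p = 0.041). The edgeR call ended without M-EV replicate 1 (-0.06 with adjusted p = 0.29), without M-LPS-EV replicate 1 (-0.09 with adjusted p = 0.13) and without M-LPS-EV replicate 3 (-0.07 with adjusted p = 0.21), and it ended with DESeq2 (adjusted p = 0.2).

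Mcm5 had 80.1, 76.9 and 73.5 CPM with M-EV and 79.3, 88.2 and 84.5 CPM with M-LPS-EV, where replicate 1 lay inside the M-EV range (edgeR log2 fold change 0.13 ± 0.04 SE, adjusted p = 0.018). Its edgeR call ended without M-EV replicate 3 (0.10 with adjusted p = 0.12) and without M-LPS-EV replicate 2 (0.09 with adjusted p = 0.13). Mcm6 was nearly level, with 118, 122 and 117 CPM and 122, 124 and 117 CPM (0.02 ± 0.03 SE). Mcm7, the most abundant MCM subunit per length at 83.2 ± 0.817 and 85.2 ± 0.467 TPM, had 88.8, 94.3 and 94.8 CPM with M-EV and 97.9, 99.6 and 97.8 CPM with M-LPS-EV. Its groups were apart, yet its 0.09 ± 0.03 SE narrowly missed the threshold (edgeR adjusted p = 0.051), as did the 0.09 ± 0.03 SE of Mcm3 (adjusted p = 0.053). Both passed with limma-voom (adjusted p = 0.038 for Mcm7 and 0.04 for Mcm3). They also passed in edgeR with only genes of a mean count of at least 50 (adjusted p = 0.042 and 0.045). Each setting called 21 members higher, beside 2372 of all genes with limma-voom and 2240 with the minimum mean count. Mcm4 had 0.04 ± 0.04 SE (edgeR adjusted p = 0.45).

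Among the factors that join the MCM ring, Cdc45 rose. It had 20.1, 21.1 and 20.2 CPM with M-EV and 22.6, 23.9 and 23.8 CPM with M-LPS-EV, without overlap (edgeR log2 fold change 0.20 ± 0.06 SE, adjusted p = 0.0086). Gins1, Gins2 and Gins4 of the GINS complex had 0.23 ± 0.12 SE, 0.12 ± 0.06 SE and 0.07 ± 0.07 SE, and edgeR called none of them (adjusted p = 0.16, 0.13 and 0.46). Gins1 lay at 4.92 to 5.18 CPM with M-EV and 5.63 to 6.34 CPM with M-LPS-EV, apart but with a large SE.

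**Figure D2:**
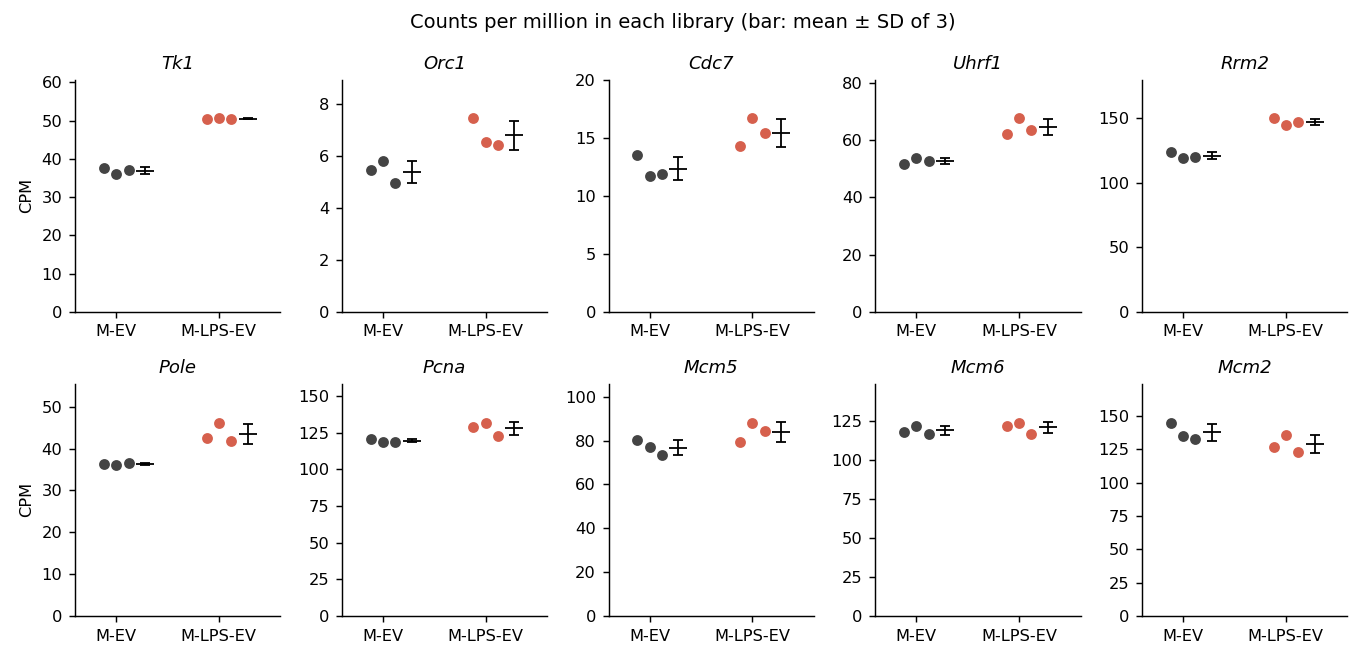
CPM (y axes, from 0) in each of the 3 M-EV and 3 M-LPS-EV libraries for selected members, with the mean ± SD beside the points. The M-EV points of Tk1 lie at 36.0 to 37.7 and its M-LPS-EV points at 50.4 to 50.6, while the points of Mcm6 and Mcm2 overlap between groups.

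Of the 12 polymerase, clamp and fork genes 8 rose and 4 were not called. Pole (ENSMUSG00000007080, chromosome 5, 110286306 to 110337474, plus strand), the catalytic subunit of the leading-strand polymerase epsilon, had 36.3, 36.0 and 36.5 CPM with M-EV and 42.4, 46.2 and 41.7 CPM with M-LPS-EV. The gap between the groups was wider than the range within either (edgeR log2 fold change 0.26 ± 0.05 SE, adjusted p = 5.2e-05). Pola1 and Pola2, the catalytic and accessory subunits of polymerase alpha, rose by 0.16 ± 0.05 SE and 0.22 ± 0.06 SE. Prim1, the primase that works with them, had 0.01 ± 0.06 SE (edgeR adjusted p = 0.93). Pold1, the catalytic subunit of polymerase delta, rose by 0.15 ± 0.05 SE, and its edgeR call ended without M-EV replicate 2 (0.10 with adjusted p = 0.12) and without M-LPS-EV replicate 1 (0.13 with adjusted p = 0.08).

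Pcna (ENSMUSG00000027342, chromosome 2, 132249162 to 132253314, minus strand) holds polymerases on DNA and is a common marker of proliferation. It had 121, 119 and 119 CPM with M-EV and 129, 132 and 123 CPM with M-LPS-EV. Every M-LPS-EV value was higher, yet by little (edgeR log2 fold change 0.10 ± 0.03 SE, adjusted p = 0.02). Its edgeR call ended without M-EV replicate 2 (0.09 with adjusted p = 0.058), without M-EV replicate 3 (0.09 with adjusted p = 0.071), without M-LPS-EV replicate 1 (0.09 with adjusted p = 0.052) and without M-LPS-EV replicate 2 (0.07 with adjusted p = 0.11), and with upper-quartile scaling (adjusted p = 0.05). The pseudogene Pcna-ps2 took 66 and 75 counts per group, few beside the 8394 and 8380 of Pcna.

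Of the 3 clamp loader subunits among the members Rfc4 and Rfc5 rose and Rfc3 was not called. Whether these 3 differ from each other was not tested. Rfc5 had 30.7, 30.6 and 32.3 CPM with M-EV and 36.3, 36.0 and 37.2 CPM with M-LPS-EV, without overlap (edgeR log2 fold change 0.23 ± 0.05 SE, adjusted p = 0.00031), but its direction turned when transcript length was taken into account. Rfc4 had 11.2, 12.5 and 11.6 CPM and 12.6, 16.2 and 13.0 CPM (edgeR log2 fold change 0.25 ± 0.09 SE, adjusted p = 0.031). M-LPS-EV replicate 2 was its highest library, and the edgeR call ended without M-LPS-EV replicate 2 (0.13 with adjusted p = 0.33), without M-EV replicate 1 (0.22 with adjusted p = 0.12) and without M-EV replicate 3 (0.25 with adjusted p = 0.07). DESeq2 did not call it either (adjusted p = 0.075). Rfc4 overlaps Eif4a2 on the opposite strand, which had 25345 and 21477 counts per group. Rfc3 had 0.01 ± 0.07 SE (edgeR adjusted p = 0.91). The library kit keeps strand, but no source used here states the strand setting of the counting, which also bears on Orc1, Rfc5, Cdc45, Mcm7, Orc6, Fen1, Gins2, Lig1, Tk1, Chaf1a and Ccne2. Chaf1a overlaps Ubxn6 (3408 and 3386 counts per group) and Ccne2 overlaps Ints8 (2204 and 2164), both on the opposite strand.

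At the lagging strand, Lig1, the ligase that joins Okazaki fragments, had 39.2, 41.7 and 41.8 CPM with M-EV and 48.2, 47.4 and 49.4 CPM with M-LPS-EV. The groups were well apart (edgeR log2 fold change 0.24 ± 0.04 SE, adjusted p = 5.7e-05). Fen1, the nuclease that trims the flaps of these fragments, had 0.09 ± 0.05 SE (edgeR adjusted p = 0.16). Rpa2, a subunit of the single-strand binding protein, had 30.8, 31.3 and 28.2 CPM and 29.0, 27.1 and 31.4 CPM. Its groups overlapped, with -0.05 ± 0.06 SE (edgeR adjusted p = 0.55).

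Among the 5 genes of nucleotide supply 4 rose, and the median log2 fold change was 0.24. In all 5 every M-LPS-EV library lay above every M-EV library, which held for 21.5% of all tested genes. Tk1 (ENSMUSG00000025574, chromosome 11, 117815526 to 117826092, minus strand) encodes cytosolic thymidine kinase, which salvages thymidine for DNA synthesis. It had 37.7, 36.0 and 37.1 CPM with M-EV and 50.5, 50.6 and 50.4 CPM with M-LPS-EV. The rise of 1.37-fold (edgeR log2 fold change 0.45 ± 0.04 SE, adjusted p = 2.0e-09) was the largest among the members, and Tk1 was the only one called under every alternative tried.

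Ribonucleotide reductase makes deoxyribonucleotides, and the genes of both its subunits on the list rose. Rrm2 (ENSMUSG00000020649, chromosome 12, 24708241 to 24714146, plus strand), the subunit whose amount limits the enzyme in S phase, had 124, 119 and 120 CPM with M-EV and 150, 145 and 147 CPM with M-LPS-EV (edgeR log2 fold change 0.28 ± 0.03 SE, adjusted p = 2.3e-08). Rrm1, the large subunit, had 128, 123 and 125 CPM and 144, 150 and 143 CPM (edgeR log2 fold change 0.22 ± 0.03 SE, adjusted p = 1.8e-06). In both genes the gap between the groups exceeded the range within either group. Tyms, thymidylate synthase, had 31.3, 31.6 and 30.8 CPM and 36.7, 37.7 and 36.0 CPM, again without overlap (edgeR log2 fold change 0.24 ± 0.04 SE, adjusted p = 0.00016). Dut, at 70.1, 71.7 and 68.5 CPM and 73.9, 72.3 and 75.3 CPM, was not called (0.07 ± 0.04 SE, edgeR adjusted p = 0.13).

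Of the 4 genes of chromatin assembly and maintenance, Uhrf1 and Chaf1a rose. Uhrf1 (ENSMUSG00000001228, chromosome 17, 56303321 to 56323486, plus strand) guides the maintenance DNA methyltransferase to newly copied DNA. It had 51.6, 53.7 and 52.7 CPM with M-EV and 62.3, 67.7 and 63.6 CPM with M-LPS-EV, well apart (edgeR log2 fold change 0.30 ± 0.04 SE, adjusted p = 1.9e-06). Chaf1a and Chaf1b are subunits of CAF-1, which places histones on new DNA, with 0.21 ± 0.05 SE and 0.16 ± 0.07 SE (edgeR adjusted p = 0.0025 and 0.095). Slbp, which binds the stem-loop of histone mRNA, had 51.1, 50.7 and 53.5 CPM and 54.1, 56.3 and 50.8 CPM, an overlap between groups (0.06 ± 0.04 SE, edgeR adjusted p = 0.35).

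Of E2f1 and the E-type cyclins, which open S phase, 1 rose. Ccne2 had 34.3, 32.6 and 33.5 CPM with M-EV and 36.0, 35.9 and 42.2 CPM with M-LPS-EV, where replicate 3 was highest (edgeR log2 fold change 0.18 ± 0.05 SE, adjusted p = 0.012). The edgeR call ended without M-EV replicate 2 (0.16 with adjusted p = 0.054) and without M-LPS-EV replicate 3 (0.10 with adjusted p = 0.12). Ccne1 had 20.1, 20.3 and 19.7 CPM and 22.2, 22.9 and 21.1 CPM. Its groups did not overlap, but its 0.14 ± 0.06 SE missed the threshold (edgeR adjusted p = 0.064). It passed in edgeR without M-LPS-EV replicate 3 (0.18 with adjusted p = 0.039) and when length was an offset (0.23, adjusted p = 0.03). E2f1, an activating E2F factor, had 30.3, 28.0 and 30.9 CPM and 32.6, 30.0 and 30.1 CPM, with groups that overlapped (0.05 ± 0.05 SE, edgeR adjusted p = 0.51).

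Transcript length bore on several of these values. RSEM divides reads among a gene's transcripts, and for 11 of the 40 members a single transcript made up at least 90% of the gene's TPM in both groups. When each gene's effective length in each library was an offset, 8 members were called higher, where 10.5% of all tested genes were. These were Tk1, Cdc7, Pole, Uhrf1, Rrm2, Rrm1, Chaf1a and Ccne1. Mcm2 was then not called (-0.08, edgeR adjusted p = 0.25), while 9.1% of all tested genes were called lower. With limma-trend on log2(TPM + 1) 7 members were called higher, beside 8.76% of all tested genes, and no member was among the 9.19% called lower. Transcript shares also shifted in members called with the offset. Cdc7 had 0.32 from counts and 0.47 with the offset, and a transcript with a mean of 29 counts held 0.0% of its TPM with M-EV and 15.8% with M-LPS-EV. Pole had 0.26 and 0.39, and a transcript with a mean of 59 counts held 15.5% and 28.4%. Ccne1 had 0.14 and 0.23, and its main transcript held 98.4% and 90.6%.

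Rfc5 turned to -0.11 with the offset (edgeR adjusted p = 0.25) and to -0.12 in TPM (limma adjusted p = 0.18). Its main protein-coding transcript, of 2796 bases, held 53.9%, 58.5% and 58.2% of the gene's TPM with M-EV and 71.8%, 72.2% and 76.7% with M-LPS-EV. An intron-retaining transcript of Rfc5 with 375 bases and a mean of 16 counts per library held 30.5% ± 6.49 and 12.7% ± 2.53 (mean ± SD, n = 3). A few counts on a short transcript thus made up 30.5% of the TPM of Rfc5 with M-EV and 12.7% with M-LPS-EV. Whether this turned the sign of Rfc5 was not tested. Tyms and Lig1 were not called with the offset (0.10 and 0.10, edgeR adjusted p = 0.36 and 0.36). Their leading transcripts are annotated as subject to nonsense-mediated decay and as a processed transcript. That of Lig1 held 40.6% ± 10.63 of the gene's TPM with M-EV and 45.3% ± 23.61 with M-LPS-EV (mean ± SD, n = 3), so it varied widely within each group.

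**Figure D3:**
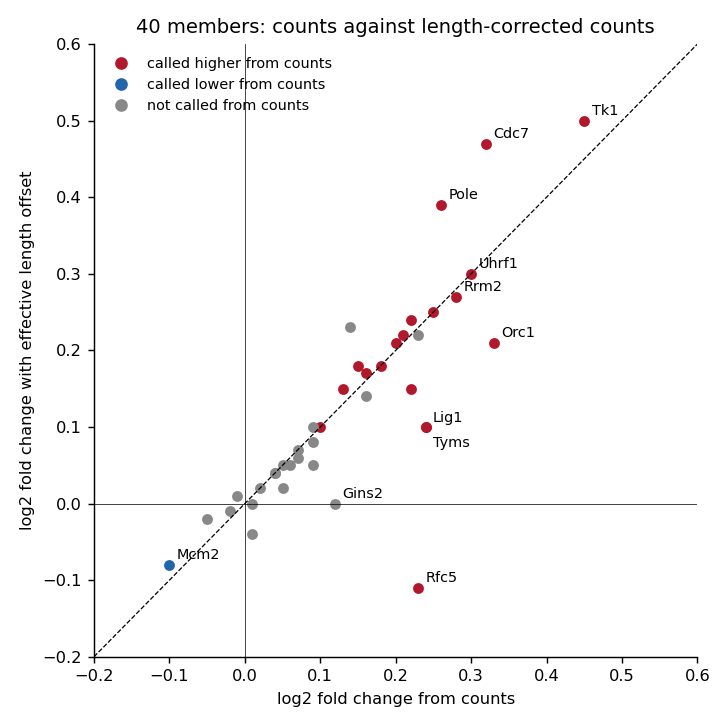
Log2 fold change of the 40 members from counts (x axis) and with effective transcript length as an offset (y axis), coloured by the call from counts, with a line of equality. Rfc5 drops from 0.23 to -0.11, and Tk1 stays high at 0.50.

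Of the 41 other genes of the replication machinery 40 were tested, of which 12 rose and 1 fell (median log2 fold change 0.11). The share called higher was 30%, beside 16.4% of all tested genes. Dbf4, the partner that activates Cdc7, rose by 0.30 ± 0.05 SE, and Ticrr, which helps Cdc45 to reach origins, by 0.30 ± 0.07 SE. Ctc1, a telomere replication factor, rose by 0.30 ± 0.05 SE, but was not called once length was an offset (0.11, edgeR adjusted p = 0.62). Orc2, an origin recognition subunit, fell by 0.13 ± 0.04 SE on the log2 scale (edgeR adjusted p = 0.031). That edgeR call ended without M-EV replicate 3 (-0.08 with adjusted p = 0.21), without M-LPS-EV replicate 1 (-0.12 with adjusted p = 0.08) and without M-LPS-EV replicate 2 (-0.12 with adjusted p = 0.087), and DESeq2 did not make it (adjusted p = 0.071). Orc2 was also not called with the length offset (-0.10, edgeR adjusted p = 0.51) or in TPM (-0.12, limma adjusted p = 0.48), nor was Ticrr in TPM (0.25, limma adjusted p = 0.1).

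Of 21 genes of nucleotide metabolism outside the members 4 rose, 6 fell and 11 were not called (median -0.03). The share called higher, 19%, was near the 16.4% of all tested genes. Ctps, which makes CTP, rose by 0.52 ± 0.03 SE (edgeR adjusted p = 9.9e-13), and Shmt2, a mitochondrial one-carbon enzyme, by 0.20 ± 0.02 SE. Dctpp1, which removes abnormal dCTP, rose by 0.24 ± 0.07 SE, a call that edgeR lost without M-LPS-EV replicate 2 (0.19 with adjusted p = 0.066) and with the length offset (0.24, adjusted p = 0.056). Nme1, a nucleoside diphosphate kinase, fell by 0.24 ± 0.03 SE, and Samhd1, which degrades deoxyribonucleotides, fell by 0.17 ± 0.03 SE, both on the log2 scale.

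Of 14 other chromatin genes coupled to replication 5 rose and 1 fell (35.7% called higher, beside 16.4% of all tested genes). Asf1b, a histone chaperone, rose by 0.32 ± 0.05 SE and Dnmt1, the methyltransferase that Uhrf1 guides, by 0.18 ± 0.03 SE, while Rbbp7, a histone-binding protein, fell by 0.20 ± 0.02 SE on the log2 scale. Among 28 genes of replication stress and fork repair 12 rose (42.9%, beside 16.4% of all tested genes), 1 fell and 15 were not called. The histone variant gene H2ax rose by 0.32 ± 0.03 SE, and Fanci of the Fanconi anaemia pathway by 0.29 ± 0.07 SE. In TPM Fanci was not called (0.24, limma adjusted p = 0.11).

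Upstream, in G1 phase, cyclins and their inhibitors set the activity of the retinoblastoma proteins. The 3 D-type cyclins, which start the phosphorylation of retinoblastoma proteins, all fell. Ccnd1 had 108, 108 and 103 CPM with M-EV and 70.6, 68.5 and 73.2 CPM with M-LPS-EV, far apart (edgeR log2 fold change -0.59 ± 0.04 SE, adjusted p = 1.1e-12). Ccnd2 and Ccnd3, named after their values were seen, fell by 0.12 ± 0.02 SE and by 0.17 ± 0.03 SE on the log2 scale. The 4 genes of the INK4 family, whose inhibitors block the kinases of D-type cyclins, all rose. Cdkn2b had 4.04, 4.44 and 5.14 CPM with M-EV and 10.3, 10.5 and 9.99 CPM with M-LPS-EV, without overlap (edgeR log2 fold change 1.18 ± 0.11 SE, adjusted p = 3.1e-09). Cdkn2a was scarce, with 66 and 119 counts per group (edgeR log2 fold change 0.95 ± 0.26 SE, adjusted p = 0.0055). Its counts were summed over 2 annotated transcripts, so they do not show which product of the gene rose. Cdkn2d rose by 0.31 ± 0.06 SE, and Cdkn2c, named after its value was seen, by 0.28 ± 0.04 SE.

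The CIP/KIP inhibitors split. Cdkn1c, which restrains the cycle in differentiating cells, had 343, 326 and 335 CPM with M-EV and 179, 177 and 192 CPM with M-LPS-EV, lower in every library (edgeR log2 fold change -0.87 ± 0.03 SE, adjusted p = 2.1e-18). Cdkn1a, a p53 target that also binds Pcna, had 181, 178 and 177 CPM and 207, 203 and 204 CPM, higher in every library (edgeR log2 fold change 0.19 ± 0.02 SE, adjusted p = 7.0e-07). Cdkn1b was not called (-0.07 ± 0.04 SE, edgeR adjusted p = 0.27). Among the 30 tested genes of G1/S control 9 rose, 5 fell and 16 were not called. The share called higher was 30%, while 16.4% of all tested genes were called higher and 15.2% lower. Foxm1, an activator of late cell cycle genes, rose by 0.36 ± 0.04 SE and Ccna2, the S phase cyclin, by 0.30 ± 0.03 SE. Rb1 rose by 0.31 ± 0.08 SE in counts but had 0.0028 with the length offset (edgeR adjusted p = 0.99). E2f5, a repressive E2F factor, fell by 0.30 ± 0.09 SE on the log2 scale (edgeR adjusted p = 0.012), a call lost without M-EV replicate 2 (-0.26 with adjusted p = 0.058) and with the length offset (-0.30, adjusted p = 0.055).

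**Figure D4:**
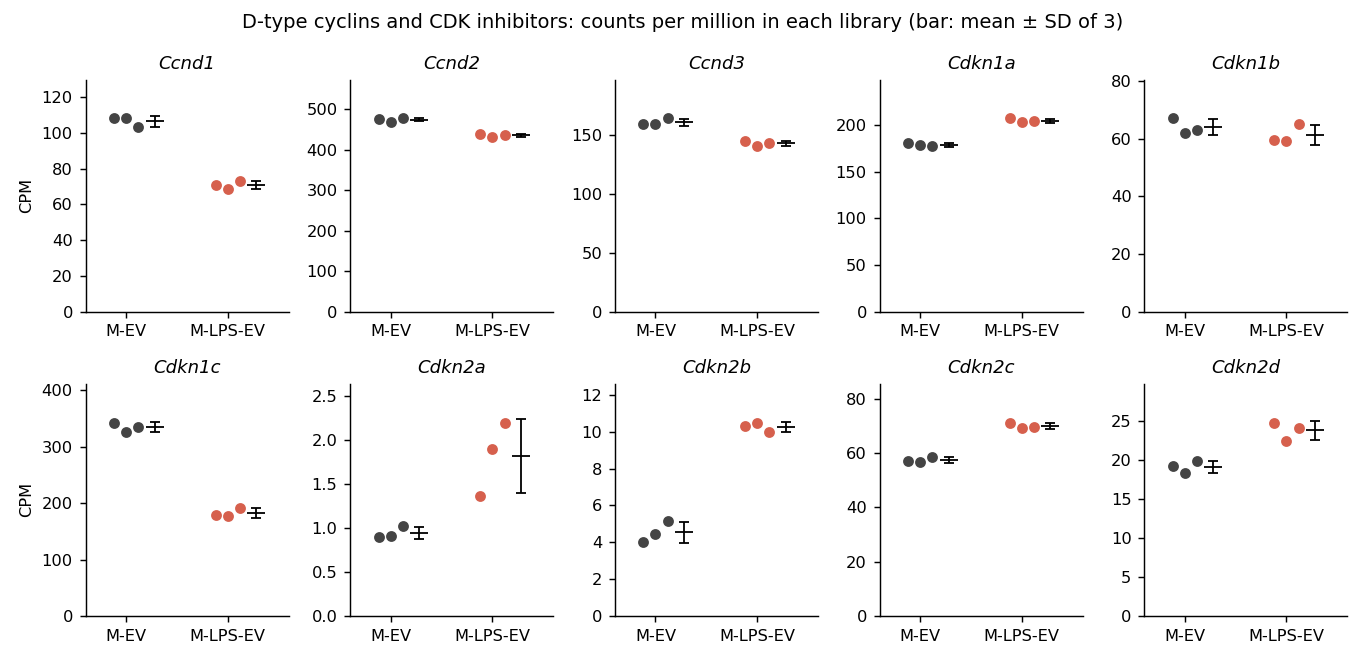
CPM (y axes, from 0) of D-type cyclin and CDK inhibitor genes in each M-EV and M-LPS-EV library, with the mean ± SD beside the points. Ccnd1 and Cdkn1c lie lower with M-LPS-EV, Cdkn2b lies higher at 9.99 to 10.5, and Cdkn1b overlaps between groups.

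Mitotic genes peak after the replication genes in the cell cycle. All 30 on the list rose, with log2 fold changes from 0.14 to 0.47 and a median of 0.30, and 9 of them passed the 1.2-fold test. Of all tested genes 16.4% were called higher, and 5.2% were called higher in the 1.2-fold test. The summed values of the mitotic genes follow. The summed TPM of the mitotic genes was 1750, 1727 and 1731 with M-EV and 2138, 2098 and 2157 with M-LPS-EV. The ratio of the group means was 1.23, beside 1.07 for the replication genes. Mki67, a nuclear protein of cycling cells, rose by 0.39 ± 0.02 SE, and the checkpoint kinase gene Bub1b by 0.47 ± 0.04 SE. Whether the lists differ was not tested. Of 28 mitotic promoter windows 3.57% held an E2F-like motif, and 78.6% each a CHR-like motif and a CCAAT box. Among replication genes with a promoter, 6 of 17 called higher and 6 of 17 others held an E2F-like motif.

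**Figure D5:**
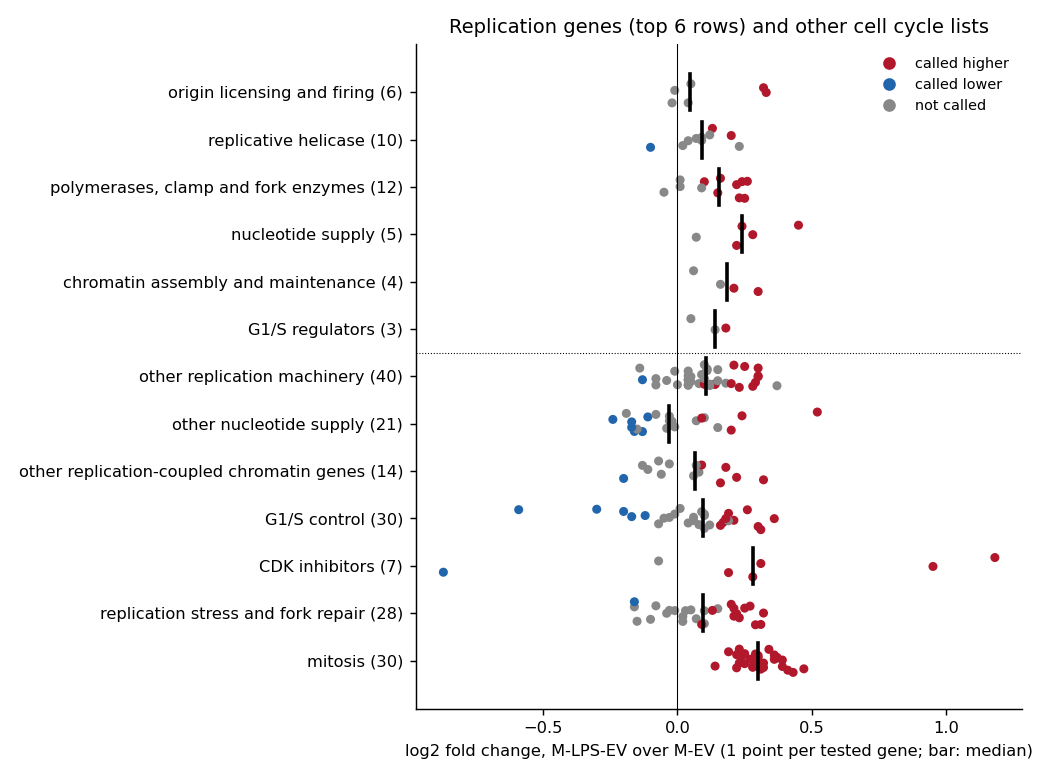
Log2 fold change of M-LPS-EV over M-EV (x axis) for each tested gene of the 6 role groups of the members and of 7 other cell cycle lists (y axis), with the median of each list as a bar. The 30 mitotic genes lie between 0.14 and 0.47, and the CDK inhibitors spread from -0.87 to 1.18.

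Chondrocyte markers were high in all libraries, and their sum was lower with M-LPS-EV. The 10 markers summed to 52646 to 53208 TPM with M-EV and 43604 to 44598 TPM with M-LPS-EV, and 9 of them fell, among them Col2a1 (-0.17) and Acan (-0.39). The 9 fibroblast and synovial markers summed to 1026 to 1033 and 1213 to 1217 TPM, with 3 called higher and 3 lower. The 12 markers of macrophages and other leukocytes summed to 36.3 to 38.4 and 43.7 to 49.2 TPM, and 6 had enough counts for the test, of which 3 rose. A single marker, with a mean of 29.4 TPM over all libraries, made up most of this sum, and 6 of the 12 had means under 1 TPM. Ptprc stood at 0.328 and 0.301 CPM and Cd3e at 0, whereas Adgre1 rose from 0.735 to 2.11 CPM (edgeR adjusted p = 4.3e-05). Endothelial markers summed to 1.01 to 1.26 and 1.25 to 1.34 TPM, and bone markers to 17.0 to 23.3 and 18.8 to 23.8 TPM, with Sost at 0. The part of other cell types in the changes of the replication genes was not tested.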

How the data were processed

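The genes described, and the other lists, were chosen with earlier results of these data known. Each table held 1 library. The authors deposited expected counts per transcript, estimated by RSEM, and TPM, scaled by effective length, per the file headers; deposited length columns are in bases. STAR, RSEM, DESeq2 and mm10 are named, without versions, per the submitters' processing notes. The annotation and strand setting are not stated. Coordinates and gene types were read from GENCODE M21, with which 99.07% of the transcripts matched, and 55141 of 55487 genes had a symbol. In the other lists 171 of 172 genes matched.

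Counts were added up per gene, rounded, filtered by filterByExpr (minimum count 10, minimum total 15), scaled by TMM and fitted with group alone (edgeR 4.0.16, R 4.3.3). How RSEM's uncertainty in assigning reads would widen the errors was not modelled. Other tools were limma 3.58.1 and DESeq2 1.42.0. All members are named; from each other list the rule took up to 3 called genes with the highest and 2 with the lowest log2 fold change, plus Cdkn1a, Cdkn1b, Ccnd1, Rb1, Mki67 and some markers, and fewer are printed. A planned search of protein motifs was not run.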

Additional observations from a re-analysis of the deposited data

How the results depend on the processing

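Scaling by RLE or the upper quartile, dropping the count filter, a minimum mean count of 50, limma-voom and the settings below were tried. In the analysis as reported 4614 genes were called (2397 higher, 2217 lower), with 19 members higher and 1 lower, 77 and 15 of the other lists' genes higher and lower, and a members' median log2 fold change of 0.14. When effective length was an offset, 2868 genes were called (1539 higher, 1329 lower), with 8 members higher and 0 lower, 54 and 9 of the other lists' genes higher and lower, and a members' median log2 fold change of 0.10. In limma-trend on TPM values, 2622 genes were called (1280 higher, 1342 lower), with 7 members higher and 0 lower, 44 and 11 of the other lists' genes higher and lower, and a members' median log2 fold change of 0.08. Against 1.2-fold, 1137 genes (760 and 377), 1 member higher and 0 lower, and 13 and 2 genes of the other lists were called. DESeq2 called 0 members lower and 17 higher; limma-voom and the minimum mean count each called 21 higher. With each library left out in turn, 3978 to 4317 genes were called, 2100 to 2245 higher and 1878 to 2072 lower, with 15 to 19 members higher and 0 to 1 lower, 68 to 73 and 11 to 17 of the other lists, and a members' median of 0.11 to 0.17. With upper-quartile scaling the sign turned, among the members and the other genes named by rule, for Prim1 (-0.0039), Rfc3 (-0.0002). With the length offset the sign turned, among the members and the other genes named by rule, for Mcm10 (0.01), Rfc3 (-0.04), Rfc5 (-0.11), Csf1r (-0.63). With TPM the sign turned, among the members and the other genes named by rule, for Cdc6 (-0.00099), Gins2 (-0.0021), Prim1 (-0.01), Rfc3 (-0.06), Rfc5 (-0.12), Rb1 (-0.0021), Csf1r (-0.35). Leaving out a library turned the sign of these uncalled values among the same genes, whose log2 fold changes then ranged as follows: Orc6 -0.08 to 0.03, Cdc6 -0.01 to 0.11, Cdt1 -0.01 to 0.09, Mcm10 -0.06 to 0.05, Prim1 -0.04 to 0.05, Rfc3 -0.04 to 0.05, Rpa2 -0.10 to 0.0026, Csf1r -0.06 to 0.36, Pecam1 -0.26 to 0.19. Libraries with the same replicate number did not deviate together (correlations 0.03, -0.04 and -0.02), and not every library correlated best with its own number. Correlations this small cannot show whether a shared number marks a shared preparation, and the labels do not say. With the replicate block 4519 genes were called, and 40 of 40 members kept direction and call. The cause of these shifts was not tested. The 3 libraries per group limit the precision of small differences, and Orc1, Gins1 and the leukocyte and endothelial markers rest on few counts.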
